A study of Mus musculus with 4 samples.

Results

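This section describes 50 mouse genes measured in C2C12 myoblasts after knockdown of Sfmbt1. They drive or restrain the passage of cells from G1 into S phase, or serve to copy DNA and its chromatin. The genes were listed by name, and each was represented by 1 probe set of an Affymetrix expression array, the one with the highest mean signal among those annotated to that gene alone. Of the 50 genes, 49 had such a probe set, out of 18193 genes named on the array, and Chaf1a was not analysed here. All 49 lay above the limit on dim probe sets, which 12866 genes passed. C2C12 is an immortalised mouse line of muscle precursor cells that divide in serum and fuse into muscle fibres when serum is withdrawn. The 4 cultures had all been infected with pLKO.1 lentivirus, selected with puromycin and grown in serum-rich medium. In 2 control cultures, titled vector control, the vector expressed a hairpin RNA that is labelled as scrambled in one field and as directed against luciferase (shLuc) in another. The other 2 cultures expressed a hairpin against Sfmbt1 (shSFMBT1), whose product is an MBT-repeat protein of chromatin. The series text describes the cultures as independent, but whether they came from separate transductions was not established, so the spread within a group may cover culture and array variation only. A single hairpin was used against Sfmbt1.

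A cell commits to division in G1, when D-type cyclins with CDK4 or CDK6, and then cyclin E with CDK2, phosphorylate the pocket proteins RB1, p107 and p130. Phosphorylation releases E2F transcription factors, which switch on the genes for replication. The origin recognition complex, CDC6 and CDT1 load the MCM helicase on DNA, CDC45 and GINS activate it, and polymerases copy the strands with the help of the sliding clamp PCNA. In muscle precursors this programme runs while cells proliferate and is shut down when they leave the cell cycle to differentiate.

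The region just upstream of the start site is where E2F proteins are known to act in many of these genes, so the 250 bases before each start were searched. RefSeq windows (GRCm38.p6) were found for 40 of the 50 genes, 49 windows in all. An E2F-type sequence, taken as TTTCCCGC, TTTCGCGC, TTTGCCGC or TTTGGCGC on either strand, with overlapping matches counted, stood in 12 of those 49 windows (24.5%) and in 1.86% of all 32851 windows of that length. The sequence TTTGAA, the CHR element known from promoters of mitotic genes, stood in 10.2% of the member windows and in 5252 of all 32851. In windows of a list of S, G2 and M phase genes, described further on, the shares were 3.33% for the E2F sequences and 36.7% for TTTGAA. A match describes the letters only, and no binding was measured. The promoters printed are those of the members that passed the test of difference, Pola1 and Ccne1, and of the helicase genes Mcm5 and Mcm6, whose windows held the most matches. Capitals mark the E2F-type matches, and each run reads 5′ to 3′ on the gene's strand and ends at the base before the start. The positions are chrX:93632156-93632405 (minus strand) for Pola1, chr7:38107491-38107740 (minus) for Ccne1, chr8:75109259-75109508 (plus) for Mcm5 and chr1:128359706-128359955 (minus) for Mcm6.
Pola1: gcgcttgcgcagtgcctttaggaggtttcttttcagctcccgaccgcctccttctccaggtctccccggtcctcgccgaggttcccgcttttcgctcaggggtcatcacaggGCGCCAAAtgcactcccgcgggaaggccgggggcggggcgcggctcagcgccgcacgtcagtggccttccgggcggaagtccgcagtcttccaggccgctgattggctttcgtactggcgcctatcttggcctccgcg
Ccne1: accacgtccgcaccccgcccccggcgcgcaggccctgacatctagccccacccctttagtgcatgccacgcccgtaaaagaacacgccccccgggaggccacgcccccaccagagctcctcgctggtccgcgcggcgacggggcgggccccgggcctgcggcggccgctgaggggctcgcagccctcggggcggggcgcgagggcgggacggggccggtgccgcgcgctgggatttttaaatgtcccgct
Mcm5: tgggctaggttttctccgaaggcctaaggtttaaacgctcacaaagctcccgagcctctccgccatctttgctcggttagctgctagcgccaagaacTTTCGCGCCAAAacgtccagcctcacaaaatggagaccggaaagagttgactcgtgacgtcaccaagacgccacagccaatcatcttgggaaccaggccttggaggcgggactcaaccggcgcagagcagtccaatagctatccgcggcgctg
Mcm6: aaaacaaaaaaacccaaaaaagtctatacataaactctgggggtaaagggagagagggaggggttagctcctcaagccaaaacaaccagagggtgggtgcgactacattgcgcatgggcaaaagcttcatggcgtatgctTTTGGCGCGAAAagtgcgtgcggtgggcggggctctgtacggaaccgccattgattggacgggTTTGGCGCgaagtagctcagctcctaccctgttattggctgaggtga
Pola1 held 1 match, which began 138 bases before the start, and Ccne1 held 0. Mcm5 held 2 that overlapped, at 153 and 149 bases, and Mcm6 held 3, at 110, 106 and 47 bases. The 12 members with a match had a median log2 difference, knockdown minus control, of -0.08, and the 27 measured members with a window and no match had -0.04.

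The median signal per array was 97.8 and 102.7 in control cultures against 92.8 and 101.1 after knockdown (control probe sets left out), and 56.2% to 67.6% of probe sets exceeded background, with the lowest share on knockdown replicate 1. For Sfmbt1 itself, each of 5 probe sets had both knockdown arrays below both control arrays. In the brightest the signals were 256.3 and 361.6 in control cultures against 166.2 and 252.3 in the knockdown, 67.7% of the control, which did not pass the test (adjusted p = 0.316). The other 4 stood at 14.4% to 69.2% of the control. Probe set 1422894 of these, at 17.4%, was called lower when every probe set was tested on its own (log2 -2.35, adjusted p = 0.0219), 1422893 was at 43.7% (adjusted p = 0.0594), and 1443853 lay in the background range on all 4 arrays and was not tested. The 6 myoblast markers lay above background on at least 1 array each, and their signals summed to 12701 and 14004 in control cultures against 12755 and 13547 in the knockdown. The 9 markers of differentiated muscle summed to 1782 and 1374 in control cultures against 6771 and 7147 in the knockdown, and 8 of the 9 rose. Their part in the cell cycle results was not tested, and in RNA from whole cultures fewer cycling cells and less of a transcript per cell cannot be told apart. Markers of macrophages, endothelium, epithelium and adipocytes summed to at most 1466 on any array for a type, and 2 of 5, 1 of 5, 1 of 5 and 2 of 3 of them lay in the background range on all arrays.

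Most G1/S and replication genes differed little between knockdown and control. Differences were taken as log2(signal + 16), knockdown minus control, and tested with limma over all 12866 genes, with a Benjamini-Hochberg adjusted p under 0.05 needed for a call. Among the 49 members Pola1, the catalytic subunit of DNA polymerase alpha, rose and Ccne1, cyclin E1, fell. That makes 1 higher and 1 lower member, where 1.44% of all genes tested were called higher and 1.61% lower. The share called among the members, 2 of 49, is therefore close to the background of 3.05%. Before adjustment 11 of the 49 had a p under 0.05, against 15.0% of all genes. The median difference of the members was -0.06 log2 units and that of all genes 0.01, and 30 of the 49 members were negative, against 47.8% of all genes. With 1 array left out at a time the members' median ran from -0.16 without control replicate 1 to 0.02 without knockdown replicate 1. It was 0.004 without control replicate 2, so the sign of the median itself rests on single arrays. The median of all genes moved with the same arrays, to 0.05 without control replicate 2 and 0.08 without knockdown replicate 1. The members' median minus that of all genes was -0.08 with all arrays, and -0.12 to -0.05 with 1 left out. That gap was not tested. The interquartile range of the members lay between -0.17 and 0.07, and that of all genes between -0.19 and 0.19. For 46 of the 49 members the 95% interval of the difference lay within a 2-fold change either way, which held for 78.4% of all genes. For 36 members it lay within 1.5-fold, which held for 43.6% of all genes. The exceptions at 2-fold were Pola1, Ccne1 and the thymidylate synthase gene Tyms. Members were brighter than all genes tested (median 10.1 against 8.70 log2 units on control replicate 1), and their median SE was 0.15 against 0.19. The interval counts therefore reflect precision as well as the size of the differences. The arrays of the knockdown lay wholly below those of the control in 15 members and wholly above in 6, where 21.5% and 23.0% of all genes did so. Centring each array on its median turned 19 positive differences into 21, and made 15 members wholly lower and 10 wholly higher, where 19.3% and 31.1% of all genes were so under the same centring. With that centring the calls over all genes went from 185 higher and 207 lower to 329 and 216. After quantile normalization 18 differences were positive, and 20 members were wholly lower and 10 wholly higher. Of all genes 22.3% and 27.7% were so under that normalization.

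**Figure D1:**
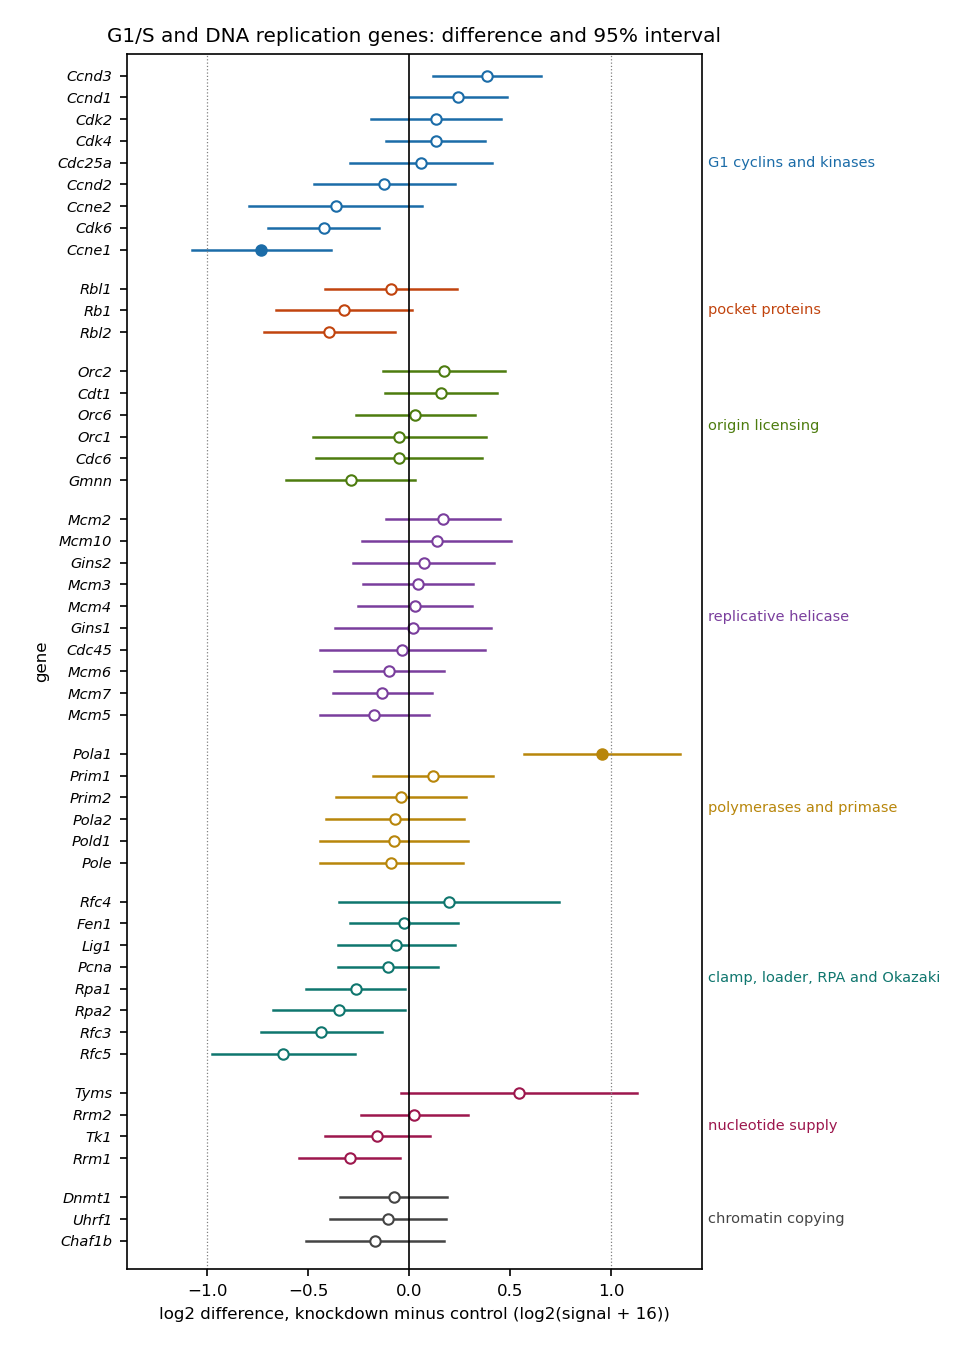
Fitted log2 difference (x axis, knockdown minus control, on log2(signal + 16)) of the 49 members (y axis), grouped by role, with the 95% interval as a line; filled points passed the adjusted threshold and dotted lines mark a 2-fold change. Pola1 stands at 0.95 and Ccne1 at -0.73, while the 10 helicase genes lie between -0.17 and 0.17.

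Among the cyclins and kinases of G1, cyclin E1 was lower and the other 8 genes did not pass. Ccne1, which activates CDK2 at the G1/S boundary, had signals of 1375.7 and 1911.3 in control cultures against 899.1 and 1045.8 in the knockdown. Both knockdown arrays lay below both control arrays. Its mean was 1644 ± 379 in control cultures against 972 ± 104 in the knockdown (SD, n = 2 each), 59.2% of the control, with a log2 difference of -0.73 (SE 0.16, interval -1.08 to -0.39, adjusted p = 0.0218). The probe set tested is of a type whose probes can also match other transcripts. The second one, without that limit, read 593.8 and 862.9 against 479.7 and 453.0, a log2 difference of -0.60 that did not pass (adjusted p = 0.122 when it stood for the gene). Leaving out control replicate 2, the brighter of the pair, gave -0.50 and an adjusted p of 0.231, and with no filter on dim probe sets the adjusted p was 0.160.

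Its relative Ccne2, cyclin E2, read 510.6 and 448.1 in control cultures against 299.3 and 451.2 in the knockdown. The second knockdown array fell within the control range, and the interval of the difference, -0.79 to 0.06, includes the value of Ccne1. The D-type cyclins bind CDK4 and CDK6 earlier in G1. Ccnd3 read 2412.2 and 2797.9 in control cultures against 3351.1 and 3449.0 in the knockdown. Its groups did not overlap, the knockdown being above, and the log2 difference was 0.39 (SE 0.13, adjusted p = 0.130). It passed with each array centred on its median (0.43, adjusted p = 0.0316). Ccnd1 had 6779.2 and 7024.7 in control cultures against 7783.0 and 8572.0 in the knockdown, again with the knockdown above (log2 0.24, adjusted p = 0.330). Further Ccnd1 probe sets gave 0.35, without overlap, and 0.008, with overlapping groups (4456.0 and 4076.3 against 4123.5 and 4456.2). Ccnd2 overlapped between groups, at 739.6 and 890.8 against 667.0 and 829.7. The differences of both E cyclins were thus negative, and those of the D cyclins lay on both sides of 0, with Ccnd2 at -0.12. The contrast between D and E cyclins was not tested.

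Cdk6, a partner of the D cyclins, read 2359.7 and 2713.3 in control cultures against 1942.1 and 1821.3 in the knockdown. All 3 of its probe sets were lower on both knockdown arrays, by -0.42, -0.35 and -0.71 log2 units, and none passed (adjusted p = 0.104 in the gene test). Cdk4, the other D cyclin partner, was 7287 in control cultures against 7975 in the knockdown (log2 0.13, interval -0.11 to 0.37). Cdk2, the partner of cyclin E, stood at 889 and 975 (log2 0.13), and Cdc25a, a phosphatase that activates CDK2, at 700.4 and 723.2 (log2 0.06).

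**Figure D2:**
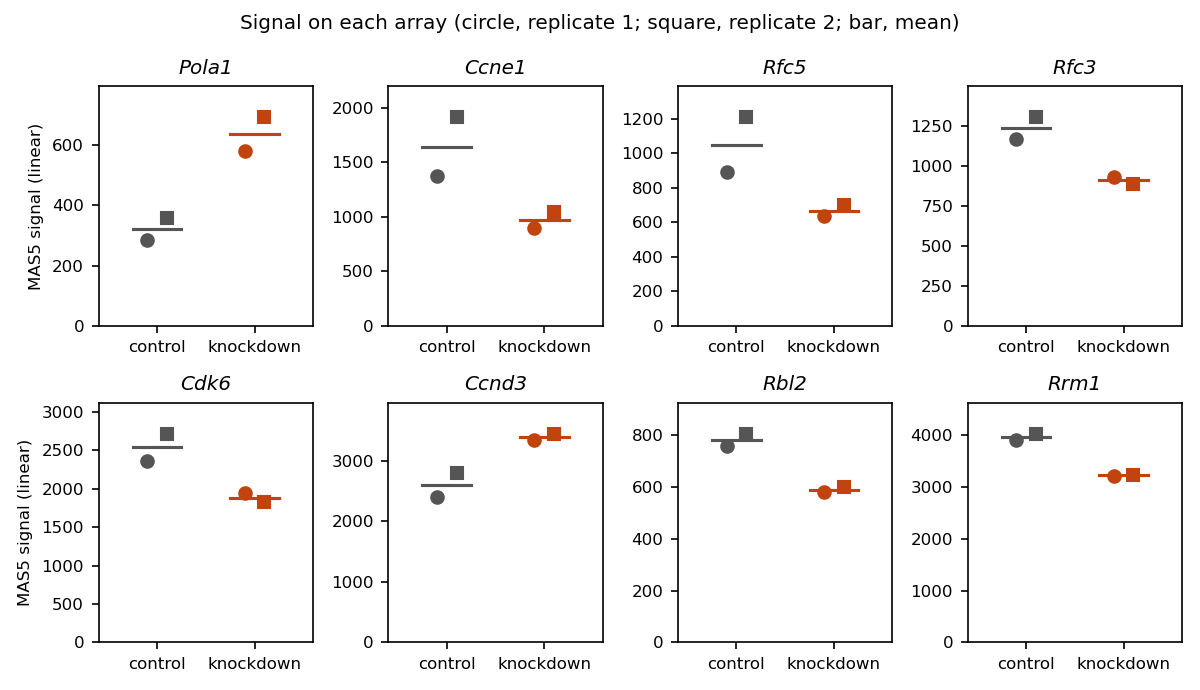
MAS5 signal (y axis, linear, from 0) of 8 members on each array, in control and knockdown (x axis); circles are replicate 1, squares replicate 2 and bars the mean of the pair. Knockdown arrays lie above the control arrays for Pola1 and Ccnd3 and below them for the other 6 genes, of which only Ccne1 passed the test.

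The pocket proteins hold E2F factors in check until they are phosphorylated, and none of their 3 genes passed. Each had both knockdown arrays below both control arrays, as had 21.5% of all genes tested. Rbl2, which encodes p130, the pocket protein of resting cells, read 757.6 and 805.1 in control cultures against 579.6 and 599.6 in the knockdown, a log2 difference of -0.40 (SE 0.15) with an adjusted p of 0.216, and its second probe set gave -0.24. Rb1, the retinoblastoma gene, read 705.9 and 663.2 against 509.8 and 579.8 (log2 -0.32, adjusted p = 0.363). For Rbl1, which encodes p107, the values were closer, 681.5 and 692.5 against 624.8 and 663.4 (log2 -0.09). Its other tested probe sets gave -0.75 and -0.22 and did not pass, and each lay in the background range on 1 array.

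Genes of origin licensing were called in neither direction, and 5 of the 6 differed by less than 0.2 log2 units. Gmnn encodes geminin, which blocks CDT1 after S phase has begun, and had signals of 1097.0 and 1194.4 in control cultures against 838.5 and 1038.1 in the knockdown. Its groups did not overlap, and the log2 difference was -0.29 (interval -0.61 to 0.03, adjusted p = 0.392). The origin recognition gene Orc2 read 950.0 and 892.3 against 1016.0 and 1063.2, with the knockdown above (log2 0.17, adjusted p = 0.638), while 2 further probe sets of it lay between -0.23 and 0.07. The groups overlapped for the licensing factors Cdc6 (log2 -0.05) and Cdt1 (log2 0.16) and for the origin recognition genes Orc1 (-0.05) and Orc6 (0.03).

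None of the 10 genes of the replicative helicase passed in the probe sets of the gene test. All 10 intervals lay within a 1.5-fold change, as did 43.6% of those of all genes. Another probe set of Mcm3, at -0.60, was called lower on its own and is described with the probe sets. The highest was Mcm2, with 3281.6 and 3888.6 in control cultures against 3651.0 and 4399.0 in the knockdown (log2 0.17, interval -0.12 to 0.45). The lowest was Mcm5, with 3094.8 and 3475.2 against 2745.6 and 3079.4 (log2 -0.17, interval -0.44 to 0.10). The probe sets used for Mcm2, Mcm3, Mcm5 and Mcm7 are of types whose probes can also match other transcripts. Mcm5 probe set 1415945, without that limit, did not overlap and gave -0.28 (interval -0.55 to -0.01), and the dim 1459658 gave 0.11. Further Mcm7 probe sets gave -0.26, -0.18 and -0.02. None of these passed when every probe set was tested on its own. Mcm5 and Mcm7 were the members of this set without overlap, both with the knockdown below, and in the remaining 8 the groups overlapped. Of all genes tested 21.5% were wholly lower. The other core subunits Mcm3, Mcm4, Mcm6 and Mcm7 lay between -0.13 and 0.04. Mcm10, Cdc45, Gins1 and Gins2, which turn the loaded helicase into an active one, lay between -0.04 and 0.13.

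Among the polymerase and primase genes Pola1 rose. It encodes the catalytic subunit of DNA polymerase alpha, which extends the RNA primers that start each new strand. Signals were 285.8 and 356.5 in control cultures against 580.1 and 691.0 in the knockdown, so the groups were far apart relative to the gap within each. The mean went from 321.2 ± 49.99 to 636 ± 78.4 (SD, n = 2 each), a log2 difference of 0.95 (SE 0.18, interval 0.57 to 1.34, adjusted p = 0.0091). When each array was left out in turn the difference was 0.80 to 1.11, and the largest adjusted p was 0.0367. A second probe set of Pola1 lay in the background range on 2 of the 4 arrays and was not tested. The mean of both probe sets gave 0.22 (adjusted p = 0.835), and with no filter on dim probe sets the adjusted p was 0.104.

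The genes for the partners of Pola1 in the same enzyme gave no call. Pola2, its regulatory subunit, was 626 in control cultures against 597 in the knockdown (log2 -0.07, interval -0.41 to 0.27). The primase subunit Prim1, which makes the RNA primer, read 1380.5 and 1544.6 against 1452.5 and 1727.7 (log2 0.12), and its partner Prim2 was 713 and 692 (log2 -0.04). The intervals of these 3 genes, which end at 0.41 or below, do not reach the lower bound of Pola1. Pole and Pold1, the catalytic subunits of the polymerases of the leading and lagging strand, had differences of -0.09 and -0.08.

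Of the 8 genes for the clamp, its loader, single-strand binding and the joining of lagging-strand pieces, 0 were called. An unadjusted p under 0.05 in limma was found for 4, against 15.0% of all genes. Differences were negative in 7 of the 8, against 47.8% of all genes. With each array centred on its median 6 of the 8 were negative, and 5401 of all 12866 genes. After quantile normalization 7 of the 8 were negative, and 5894 of all genes. The knockdown arrays lay wholly below the control arrays in 4 of the 8, against 21.5% of all genes. After quantile normalization they did so in 7, against 22.3% of all genes. These counts were not tested. Rfc5, a subunit of the loader that opens the PCNA ring, read 891.0 and 1209.5 in control cultures against 638.4 and 699.3 in the knockdown. Both knockdown arrays lay below, at 63.7% of the control, and the adjusted p of 0.0556 was just over the threshold (log2 -0.62, SE 0.17). It passed in 7 of 15 alternative settings, among them quantile normalization (adjusted p = 0.0453), and without control replicate 2 it gave -0.41 (adjusted p = 0.453). Rfc3, of the same loader, read 1168.6 and 1301.4 against 929.2 and 886.9 (log2 -0.44, adjusted p = 0.131), with -0.12 in its second probe set. Rfc4 overlapped widely, at 246.6 and 475.6 against 330.2 and 473.0.

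The single-strand binding protein genes Rpa1 and Rpa2 were both without overlap, the knockdown being below, as in 21.5% of all genes. Rpa1 read 7400.4 and 7757.1 in control cultures against 5963.5 and 6651.1 in the knockdown (log2 -0.27, adjusted p = 0.284) and passed after quantile normalization (-0.32, adjusted p = 0.0243). Its second probe set overlapped between groups, at 2479.2 and 2568.0 against 2346.3 and 2485.2 (log2 -0.06). Rpa2 read 708.5 and 722.1 against 548.5 and 568.9 (log2 -0.35, adjusted p = 0.298), with -0.21 in its second probe set. For Pcna, the sliding clamp, the groups overlapped, at 13676.7 and 15163.9 against 12442.1 and 14410.2 (log2 -0.10, interval -0.35 to 0.14). The flap nuclease gene Fen1 and the DNA ligase gene Lig1, which join the pieces of the lagging strand, had differences of -0.03 and -0.06.

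Genes of nucleotide supply gave no call in either direction. Rrm1, the large subunit of ribonucleotide reductase, read 3905.9 and 4031.7 in control cultures against 3216.1 and 3242.1 in the knockdown. The pairs were tight and did not overlap (log2 -0.30, SE 0.12, adjusted p = 0.233). The small subunit Rrm2, by contrast, overlapped, at 10886.1 and 12457.4 against 10737.2 and 13068.0 (log2 0.02, interval -0.24 to 0.29). Tyms, whose product makes thymidylate, read 150.5 and 108.1 against 186.3 and 200.5, with no overlap, and its interval of -0.04 to 1.13 is the widest of all members. These signals were dim, where the background limits of the arrays were 42.9 to 69.3. Tyms probe set 1438690 gave 0.51 with 1 array in the background range, and 1427810 and 1427811 lay there on all 4 arrays. The thymidine kinase gene Tk1 was 3475 in control cultures against 3112 in the knockdown (log2 -0.16).

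The genes for copying chromatin and its methylation gave no call either. Chaf1b, a subunit of the chaperone that places histones behind the fork, read 603.1 and 702.5 in control cultures against 562.9 and 591.0 in the knockdown (log2 -0.17), with no overlap. The maintenance DNA methyltransferase gene Dnmt1 had a difference of -0.08, with 0.02 and 0.49 in its other probe sets, which did not pass. Uhrf1, which recruits that enzyme to replicated DNA, had -0.11 in the probe set of the gene test.

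Probe sets of 1 gene did not always give 1 answer. The 49 members had 118 probe sets, of which 100 were bright enough to test, and 34 members had at least 2. In 24 of these 34 all tested probe sets had the same sign, and in 10 they had both signs. The median range between the probe sets of a gene was 0.19 log2 units. When every probe set was tested on its own, 0.961% of all 22893 were called higher and 1.43% lower (2.39% in all). Of the 100 member probe sets 1 was called higher and 3 lower. Besides those of Pola1 and Ccne1 these were 1 of Uhrf1 and 1 of Mcm3.

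Uhrf1 probe set 1415811 read 1732.1 and 1980.5 in control cultures against 968.5 and 1144.4 in the knockdown, 56.9% of the control (log2 -0.81, SE 0.14, adjusted p = 0.0152 over probe sets). The brighter probe set 1415810 of the same gene read 1735.4 and 2077.3 against 1704.4 and 1822.3, with overlapping groups. Mcm3 probe set 1426653 read 2525.8 and 2711.1 against 1683.5 and 1749.5, 65.6% of the control (log2 -0.60, SE 0.12, adjusted p = 0.0290 over probe sets). The other 4 of Mcm3 lay between -0.10 and 0.19. Among them 1420028, used in the gene test, and 1449705 are of types whose probes can also match other transcripts. The called probe set is without that limit, as are 1426652, at -0.10 with overlapping groups, and 1420029. The last read only 183.6 and 201.1 against 211.8 and 231.3. Which of the probe sets reflects the abundance of the full transcript was not tested. Without control replicate 2 the adjusted p was 0.0604 for the Uhrf1 probe set and 0.149 for that of Mcm3, and without control replicate 1 that of Mcm3 was 0.0865.

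**Figure D3:**
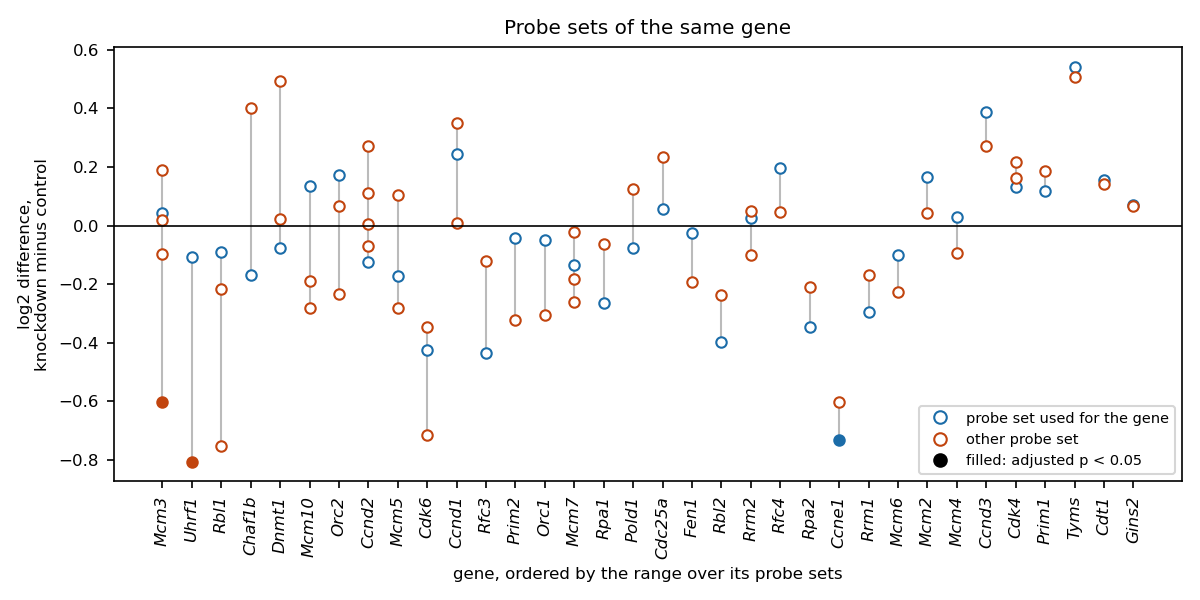
Log2 difference (y axis, knockdown minus control) of each tested probe set for the 34 members with at least 2 (x axis), ordered by the range over the probe sets; blue marks the probe set used in the gene test, orange-red the others, and filled points had an adjusted p under 0.05. Mcm3 and Uhrf1 have ranges of 0.79 and 0.70, and Cdt1 and Gins2 of 0.02 and 0.003.

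Other genes of the pathway, listed in 4 sets, gave no call among further replication genes and 2 calls in each of the other 3 sets. Of all genes tested with limma 3.05% were called, 15.0% had an unadjusted p under 0.05 and 47.8% were negative. Of 34 further replication genes 0 were called by limma (6 had an unadjusted p under 0.05), 19 were negative and the median was -0.04. The smallest p belonged to Slbp, which binds histone mRNA, at 2133 and 1491 (log2 -0.51, adjusted p = 0.0556), and the helicase subunit Gins3, at 800.2 and 557.8 (log2 -0.51, adjusted p = 0.113). Of 35 S, G2 and M phase genes 0 rose, 2 fell and 32 were negative, with a median of -0.17. With each array centred on its median 28 of the 35 were negative, and 5401 of all 12866 genes. After quantile normalization 30 were negative, and 5894 of all genes. The knockdown arrays lay wholly below the control arrays in 17 of the 35 and wholly above in 0, against 21.5% and 23.0% of all genes. After quantile normalization 24 were wholly below, against 22.3% of all genes. These counts were not tested. The 2 genes that fell were the condensin gene Ncapg, from 1252 to 637, and the spindle kinesin gene Kif11, from 1204 to 726 (adjusted p = 0.0029 and 0.0122). Without control replicate 1 Kif11 had an adjusted p of 0.0660.

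Among 10 E2F and DP genes, Tfdp1, the DNA-binding partner of E2F proteins, fell from 3730.9 and 4186.8 to 1964.8 and 2225.1 (log2 -0.91, SE 0.13, adjusted p = 8.30e-04). E2f3 rose from 657.6 and 689.2 to 1050.7 and 994.2 (log2 0.59, SE 0.15, adjusted p = 0.0391), and E2f1 read 890.7 and 906.0 against 607.8 and 652.0 (log2 -0.50, adjusted p = 0.0906). The list had 8 negative differences, where 47.8% of all genes were negative, and a median of -0.30. The call of E2f3 ended with control replicate 1 left out (adjusted p = 0.190), and likewise for control replicate 2 (0.0985) and knockdown replicate 1 (0.0631). The mean of all its probe sets gave 0.19 (adjusted p = 0.642), and with every probe set tested the adjusted p was 0.0541. Of 5 tested inhibitors of cyclin-dependent kinases 1 rose and 1 fell. Cdkn1a, which encodes p21, an inhibitor of cyclin E-CDK2, rose from 1924.1 and 1829.1 to 2666.2 and 2889.8 (log2 0.56, adjusted p = 0.0224). Cdkn2d, which encodes p19, an inhibitor of CDK4 and CDK6, fell from 1369.3 and 1529.6 to 648.5 and 795.4 (log2 -0.99, adjusted p = 0.0016). For Cdkn1a the adjusted p was 0.0608 with control replicate 1 left out and 0.125 with control replicate 2 left out.

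**Figure D4:**
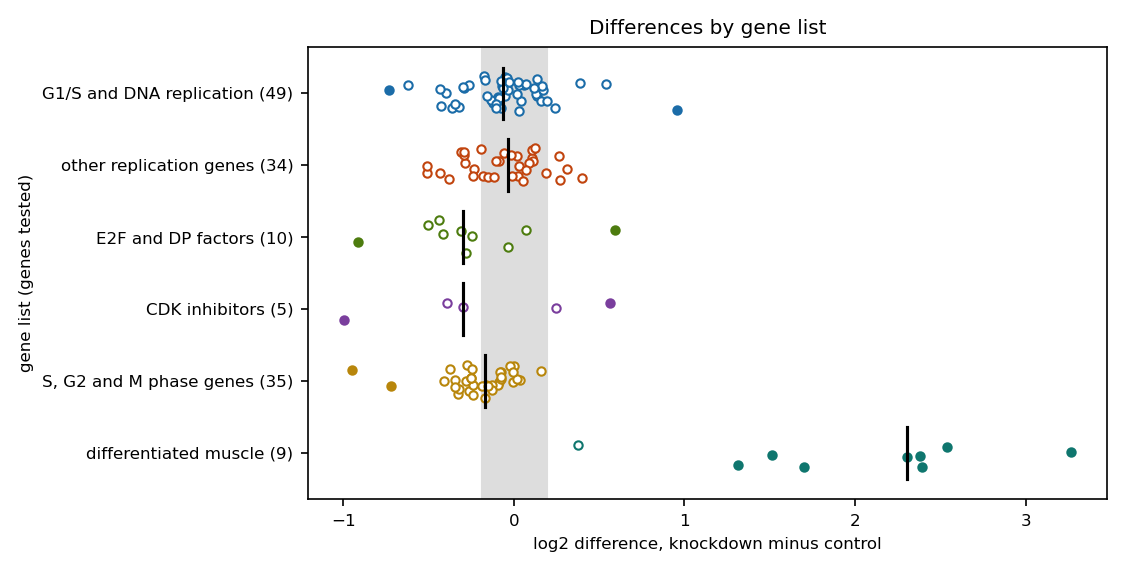
Log2 difference (x axis, knockdown minus control) of the tested genes of each list (y axis, number tested in brackets); filled points passed the adjusted threshold, black bars are medians, the vertical jitter within a list carries no value, and the grey band is the interquartile range of all 12866 genes, from -0.19 to 0.19. The medians are -0.06 for the G1/S and replication genes, -0.17 for the S, G2 and M phase genes and 2.30 for the markers of differentiated muscle.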

How the data were processed

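RNA of 4 cultures was hybridised to 1 Affymetrix mouse array each. The deposited values are linear intensity signals per probe set, for which the submitters' processing notes name MAS5 and GCOS. No label states the scaling between arrays, and depth has no counterpart on an array, so the 2 arrays per group limit the precision. Of 45101 probe sets 34945 had 1 gene in the array annotation, 932 several and 9160 none in that table, and 64 were controls. Symbols were updated through RefSeq for 34741.

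Signals were transformed as log2(signal + 16). The brightest 60% of probe sets by mean log2 value (signal 57.3 and above) were kept, and knockdown minus control was tested two-sided with limma 3.58.1 (eBayes with a variance trend) in R 4.3.3 over 12866 genes. A single-gene exact permutation test cannot go below 0.333 here. An array's background limit was the signal that 95% of its 27 bacterial controls stay under. The steps were tested on simulated data. Array values are given for members past the threshold, the 2 with the smallest p of each role and others of the same complexes, and list genes are named if they passed or had the 2 smallest p. The members and lists were chosen with earlier results of these data known. Alternatives covered the pseudocount, filter, scaling, variance trend, replicate block, choice of probe set and each array left out.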

Additional observations from a re-analysis of the deposited data

How the results depend on the processing

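Leaving out 1 array at a time gave 0 to 2 members called lower, 0 of them without control replicate 2 (4 members had an unadjusted p under 0.05 in limma), and 1 called higher each time. The counts were 0 lower and 0 higher with no filter (9 members under an unadjusted 0.05), without the variance trend (7) and with the mean of all probe sets of a gene (6). They were 2 lower with a pseudocount of 64 or the upper 40% filter, 3 lower with quantile normalization, 2 higher with median centring, and 2 lower and 2 higher with the replicate number as a block. Calls over all genes, 185 higher and 207 lower, rose too in these settings, to 192 and 220, 285 and 322 (of 9629), 257 and 277, 329 and 216, and 276 and 270, in the order named. Replicate differences in control and knockdown correlated at r = 0.010 over 12866 genes, but a correlation does not register a shift common to all genes. Replicate 2 was above replicate 1 in 41 members in control cultures and in 44 in the knockdown. The median shift of the members was 0.15 and 0.14 log2 units, and that of all genes 0.10 and 0.13. Whether the replicate number marks a shared batch was not tested. The member calls added in the settings above were Rfc5, Ccnd3 and, with quantile normalization, Rpa1. Without shared probe sets the count stayed at 1 lower, but the gene was Mcm3 (-0.60) in place of Ccne1. The median of the members (-0.06) ran from -0.16 to 0.02 with 1 array left out and changed sign without control replicate 2 or knockdown replicate 1. It was -0.09 to -0.02 in the other settings. Each shift was under the spread between arrays of a group (0.114 log2 units). Less the median of all genes, the members' median was -0.12 to -0.05 with 1 array left out and -0.09 to -0.07 in the other settings. Of 240 alternative values of the 16 members with array values by rule, 221 had the same sign and side of the threshold. Signs turned for Rb1 (0.018) and Chaf1b (0.116) with the mean of all probe sets, Prim1 without knockdown replicate 2 (-0.0076, leave-one-out range -0.0076 to 0.240) and Uhrf1 without control replicate 2 (0.022, range -0.235 to 0.022), and the causes were not tested. Among the other 33 members 47 of 494 values changed sign. Without the variance trend limma called 0 of 12866 genes (1501 had an unadjusted p under 0.05), Tfdp1 and Cdkn2d being at an adjusted p of 0.222. With no filter or with the mean of all probe sets of a gene, E2f3, Cdkn1a, Ncapg and Kif11 did not pass either. That mean was 0.90 for Cdkn1a and -0.59 for Ncapg. The Uhrf1 and Mcm3 probe sets called on their own had adjusted p-values of 0.0865 and 0.0931 with no filter.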
